A study of Mus musculus with 15 samples.

Results

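The 5 genes described here are the metallothionein genes Mt1, Mt2 and Mt3, the metal-sensing transcription factor gene Mtf1 and the zinc exporter gene Slc30a1, out of 34714 genes in the deposited table. They were listed by name with earlier results of these libraries in view, so their levels are given as a description, with no p-value printed. Their calls in a fit over all genes are counted further below, and nothing is read from them. Metallothioneins are small cysteine-rich proteins that bind zinc and copper, buffer free zinc and take up cadmium and reactive oxygen species. When free zinc rises in a cell, MTF1 binds zinc, enters the nucleus and activates genes that carry metal response elements in their promoters, among them Mt1, Mt2 and Slc30a1. Mt1 and Mt2 are active in most tissues and are also induced by glucocorticoids and by inflammatory cytokines, whereas Mt3 is known mainly from neurons and Mt4 from stratified epithelia.

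RNA came from the aorta of wild-type mice in 3 groups of 5 libraries. Sham was the control group, AngII mice were made hypertensive with infused angiotensin II (750 ng per kg per minute), and AngII + RvE1 mice were given the same infusion plus intraperitoneal resolvin E1 (2 µg per kg per day), a lipid mediator derived from a fatty acid of fish oil. The labels give no strain, age, sex, duration of infusion or time of collection, and nothing in them says that each library is a different animal, so a p-value here refers to variation among libraries, which may be technical. Both infused groups share angiotensin II, and no group received resolvin E1 alone.

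The values are treated as FPKM, that is, as fragment counts scaled to transcript length and library depth, although the table names no unit and scaling to gene length could not be shown from it. The 15 columns had sums of 385846 to 514281 FPKM, with 11466 to 12996 genes at 1 FPKM or more. Depth is unknown, and counting intervals are therefore not given. Smooth muscle markers were abundant in all 15 libraries, with a summed level of 7 genes of 1159 or more FPKM. Fat and red cell genes were abundant as well. Over all libraries, 9 adipocyte genes summed to 8445 to 21000 FPKM and 6 brown fat genes to 844.3 to 10940. The sum of 5 red cell genes was 5346 to 78370 FPKM. The median adipocyte sum was 12240 FPKM in Sham, 16770 in AngII and 11470 in AngII + RvE1. Over 15 libraries the adipocyte sum had an r of 0.513 (rho 0.625) with Mt1 and 0.137 (rho 0.168) with Mt2. The brown fat sum had an r of -0.211 (rho 0.296) with Mt1 and -0.603 (rho -0.304) with Mt2. Without the 2 libraries farthest from the median sum, r with Mt1 was 0.297 for adipocyte and 0.611 for brown fat genes. With Mt2 it was then -0.007 and 0.084. The part of fat or blood in the member levels was not tested. AngII libraries 3, 4 and 5 stood apart from the other 12. Their summed level of 7 lymphocyte markers was 726, 239 and 1119 FPKM, against 5.20 to 10.8 in AngII libraries 1 and 2 and 2.94 to 52.4 in the other groups.

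The metallothionein genes lie side by side on chromosome 8 of mm10 (RefSeq annotation of GRCm38.p6). Mt4 spans 94137204 to 94139031, Mt3 94152607 to 94154148, Mt2 94172618 to 94173567 and Mt1 94178883 to 94180327. The gap between Mt2 and Mt1 is 5315 bp and that between Mt3 and Mt2 is 18469 bp. Mtf1 lies on chromosome 4 from 124802549 to 124849800 and Slc30a1 on chromosome 1 from 191906697 to 191913248. These ranges cover whole genes.

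The 250 bases before the start site of 3 metallothionein genes are shown because these windows differ in their number of metal response element cores. That number depends on where a window ends, and further cores of each gene lie just past the end of its window. The sequences are RefSeq windows of GRCm38.p6 on the plus strand, at chr8:94178839-94179088 for Mt1, chr8:94172368-94172617 for Mt2 and chr8:94152357-94152606 for Mt3. Capitals mark each core, searched as TGCACNC or TGCGCNC on both strands, so a core on the minus strand appears as its reverse complement.
Mt1: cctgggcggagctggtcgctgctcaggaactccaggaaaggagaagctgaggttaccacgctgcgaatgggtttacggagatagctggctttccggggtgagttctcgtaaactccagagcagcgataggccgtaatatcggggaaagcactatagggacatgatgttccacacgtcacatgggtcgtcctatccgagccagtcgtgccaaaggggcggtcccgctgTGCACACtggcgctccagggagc
Mt2: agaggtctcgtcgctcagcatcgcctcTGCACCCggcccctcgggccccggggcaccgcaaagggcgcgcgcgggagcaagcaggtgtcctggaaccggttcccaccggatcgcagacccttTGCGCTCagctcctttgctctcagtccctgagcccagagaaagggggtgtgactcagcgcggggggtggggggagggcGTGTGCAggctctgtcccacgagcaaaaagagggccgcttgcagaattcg
Mt3: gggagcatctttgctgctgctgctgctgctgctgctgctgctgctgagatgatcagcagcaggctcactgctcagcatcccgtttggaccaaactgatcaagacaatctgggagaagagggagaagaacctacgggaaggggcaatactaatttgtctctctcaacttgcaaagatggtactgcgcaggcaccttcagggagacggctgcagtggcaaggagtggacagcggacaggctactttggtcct

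Mt2 held 3 cores in this window, Mt1 held 1 and these letters were not found in the Mt3 window. The Mt1 core lies 23 to 17 bases before the start, and the cores of Mt2 lie 223 to 217, 128 to 122 and 50 to 44 bases before it. These positions and counts depend on the start site used, and other start sites were not tried. The counts are therefore no measure of how many cores each promoter holds. Of 32851 windows of 250 bases, 21.4% held at least 1 core and 1.26% held at least 3. The windows were also extended by the 50 bases after the start site used. The counts were then 4 for Mt2, 3 for Mt1, 1 for Mt3, 2 for Slc30a1 and 0 for Mtf1. Of the extended windows, 25.7% held at least 1, 7.11% at least 2, 1.97% at least 3 and 0.517% at least 4. The annotated Mt1 gene starts at 94178883, upstream of the start site used for its window, because a longer predicted transcript is included. A match of these letters is a description of the sequence and not a measured binding site.

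Mt1 and Mt2 supplied nearly all metallothionein RNA in the aorta. Both had their highest group mean in AngII, and AngII + RvE1 means lay close to Sham for Mt1 and somewhat below it for Mt2, but the groups overlapped and 1 AngII library carried much of the difference. Mt1 and Mt2 transcripts are similar in sequence, so reads may have been divided between them by the authors' counting, and the split between the 2 genes is uncertain.

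In Sham libraries 1 to 5, the Mt1 level was 499, 456, 533, 631 and 371 FPKM. In AngII it was 785, 735, 1295, 633 and 393 FPKM, and in AngII + RvE1 443, 486, 555, 362 and 595 FPKM. AngII libraries 1, 2, 3 and 4 lay above every Sham library, library 4 by little, while AngII library 5 lay below 4 of them. Group means were 498 ± 95.8 FPKM in Sham, 768 ± 331 in AngII and 488 ± 91.8 in AngII + RvE1 (SD, n = 5 each). On the log2(FPKM + 1) scale AngII exceeded Sham by 0.54 (SE 0.27), AngII + RvE1 was below AngII by a difference of -0.57 (SE 0.27) and AngII + RvE1 differed from Sham by -0.03 (SE 0.27). Without AngII library 3 the first pair of differences were 0.33 and -0.35.

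For Mt2, Sham libraries gave 168, 86.3, 74.2, 278 and 103 FPKM. AngII libraries gave 202, 165, 731, 175 and 107 FPKM, and AngII + RvE1 libraries 92.4, 123, 97.3, 104 and 143 FPKM. AngII library 3 stood alone at the top, and the other AngII libraries lay inside the Sham range. The means were 142 ± 84.0 FPKM in Sham, 276 ± 257 in AngII and 112 ± 21.1 in AngII + RvE1 (SD, n = 5 each), so AngII + RvE1 also had the narrowest spread. The log2 differences were 0.77 for AngII against Sham, -0.95 for AngII + RvE1 against AngII and -0.18 for AngII + RvE1 against Sham (SE 0.44 each). Leaving out AngII library 3 brought the first pair to 0.33 and -0.51.

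Mt1 ranked between 28th and 173rd among all genes of a library by level, and Mt2 between 88th and 907th. Together they made up 0.104% to 0.444% of a library's summed FPKM, with the top value in AngII library 3. The ratio of the Mt1 level to the Mt2 level ran from 1.77 in AngII library 3 to 7.18 in Sham library 3, on the assumption that values are scaled to length. Of the summed level of the 3 genes, Mt3 contributed 0.0613% to 0.472% in Sham libraries, 0.330% to 2.01% in AngII libraries and 0.491% to 2.26% in AngII + RvE1 libraries. Mt4 was listed at 0 in all 15 libraries.

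**Figure D1:**
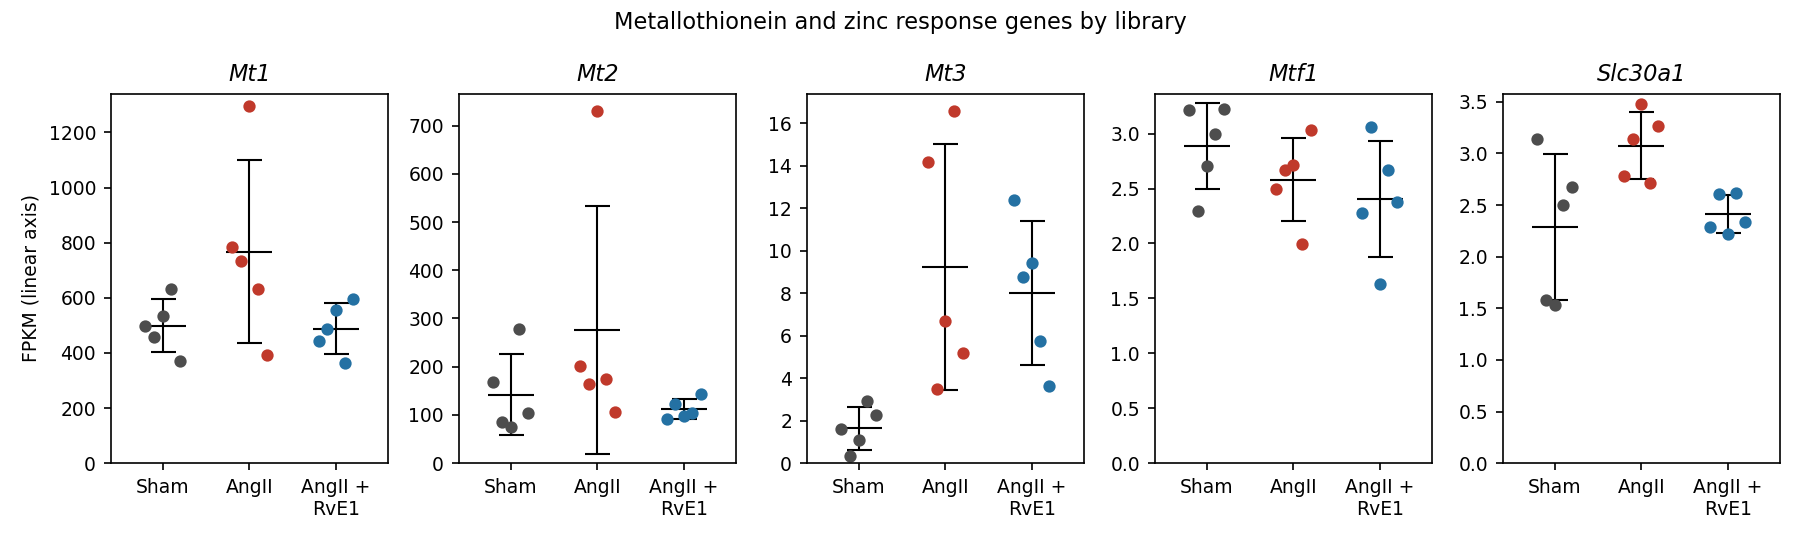
FPKM of the 5 genes in each library on linear axes, with 1 panel per gene; points are libraries in the order of their number and bars show the mean ± SD of 5 libraries. AngII library 3 lies far above the others for Mt1 (1295) and Mt2 (731), and all Sham values of Mt3 lie below those of both infused groups.

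Mt1 and Mt2 followed each other across libraries. Over the 15 libraries Pearson's r of their log2 levels was 0.841 and Spearman's rho 0.689, and r was 0.781 after group means were subtracted. Mt2 ranked second among 12602 other tested genes by its r with Mt1, and Mt1 ranked 10th by its r with Mt2. Without AngII libraries 3 and 1, the farthest from the Mt1 median, r was 0.585, and without AngII library 3 and Sham library 4, the farthest from the Mt2 median, it was 0.655. The 2 genes share libraries, depth and possibly reads, so these values are descriptive. Mt3 had an r of 0.253 with Mt1 and 0.239 with Mt2.

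**Figure D2:**
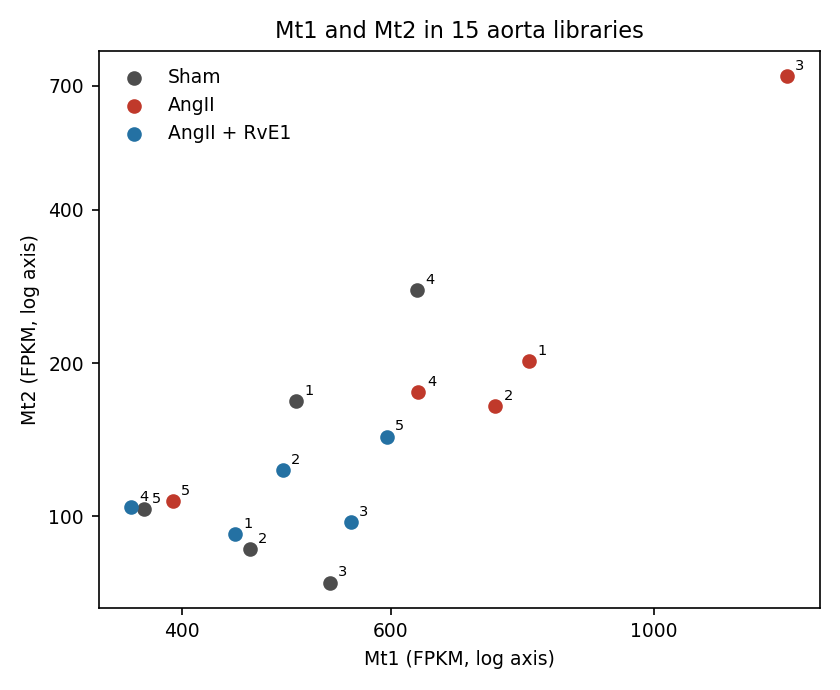
Mt2 against Mt1 in FPKM on log axes, with 1 point per library coloured by group and numbered within it. The points run from low to high together, and AngII library 3 lies at the upper right at 1295 and 731 FPKM.

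The library with the highest Mt1 and Mt2 also had the highest sums of several other gene lists. AngII library 3 had a summed level of 8 IL-6 and STAT3 response genes of 543.5 FPKM, against 104.9 to 220.0 in the other 14 libraries. Macrophage markers summed to 586 FPKM there and to at most 277.5 in any other library. The 23 zinc transporter genes outside the members summed to 227.5 FPKM there and to at most 212.3 elsewhere. Brown fat markers had their lowest sum of all 15 libraries there, at 844.3 FPKM. Hmox1, which encodes the heme-degrading enzyme heme oxygenase 1, stood at 863 FPKM in this library and at 51.3 or less in the others. The 8 listed targets of NRF2, the transcription factor of the oxidative stress response, summed to 1228 FPKM there and to at most 810.3 elsewhere. Without Hmox1, the other 7 summed to 365 FPKM there, near the low end of the range over all libraries (334.2 to 800.1). Smooth muscle marker sums were also lower in AngII (1159 to 3323 FPKM) than in AngII + RvE1 (5323 to 9583), without overlap, and ran from 1716 to 12050 in Sham. The part of these lists in the Mt1 and Mt2 levels was not tested.

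Mt3 lay higher in both infused groups than in Sham, with no overlap. In Sham libraries 1 to 5 it was 1.60, 0.333, 1.07, 2.93 and 2.25 FPKM. In AngII it was 14.2, 3.50, 6.70, 16.6 and 5.17 FPKM, and in AngII + RvE1 12.4, 8.75, 9.44, 5.76 and 3.65 FPKM. Every library of both infused groups lay above every Sham library, while AngII and AngII + RvE1 overlapped over most of their range. Among all 12603 tested genes, 2.92% had every AngII library above every Sham library and 0.825% had every AngII + RvE1 library above every Sham library; Mt3 was chosen with these contrasts in view, so nothing is read from its place among them.

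Mean Mt3 levels were 1.64 ± 1.01 FPKM in Sham, 9.23 ± 5.79 in AngII and 8.001 ± 3.394 in AngII + RvE1 (SD, n = 5 each). On the log2(FPKM + 1) scale AngII exceeded Sham by 1.86 and AngII + RvE1 exceeded Sham by 1.77, and AngII + RvE1 differed from AngII by -0.08 (SE 0.40 each). The added 1 pulls differences of such low levels toward 0, and with an added 0.1 the first pair were 2.46 and 2.38. Both comparisons share the Sham libraries. Unlike Mt1 and Mt2, Mt3 had no AngII library far from the rest, and AngII libraries 4 and 1 were its highest.

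The genes whose levels followed Mt3 most closely were Ptprn (r = 0.929), Hand2os1 (0.926), Tagln3 (0.913), Rab3b (0.910) and Bean1 (0.910), over 15 libraries and 12602 genes. Members and symbols that end in Rik or start with Gm and a digit were left out. Ptprn encodes a membrane protein of dense-core vesicles, Rab3b a vesicle GTPase, Tagln3 a neuronal relative of transgelin and Hand2os1 is a noncoding RNA beside Hand2, a transcription factor gene of sympathetic neurons. Each of these 5 genes was a neighbour by level alone. Ptprn was 0.771 ± 0.815 FPKM in Sham, 3.93 ± 3.17 in AngII and 3.96 ± 2.25 in AngII + RvE1 (SD, n = 5 each).

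Because of these neighbours, 20 genes of sympathetic neurons and chromaffin cells were listed after the values had been seen, among them Th and Dbh, which encode enzymes of noradrenaline synthesis, and Npy, which encodes a cotransmitter. Their summed level was 60.5, 36.6, 18.5, 222.9 and 40.8 FPKM in Sham libraries 1 to 5. In AngII it was 732, 38.5, 238.5, 724 and 199.6 FPKM, and in AngII + RvE1 498.7, 605, 503, 299.3 and 87.4 FPKM. Sums were thus higher in most infused libraries, but AngII library 2 and AngII + RvE1 library 5 lay in or near the range of the 4 lower Sham libraries. The Mt3 level and this sum, both on the log2 scale, had an r of 0.909 and a rho of 0.932 over 15 libraries, and r was 0.891 without the 2 libraries farthest from the median. In bulk tissue, fewer cells of a type and less RNA per cell cannot be told apart.

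The 2 infused libraries with the lowest nerve cell sums had the lowest Mt3 of their groups, at levels above the highest Sham library. AngII library 2 had 0.0424 FPKM of Th, 0.0435 of Dbh and was listed at 0 for Npy, and its Mt3 level was 3.50 FPKM. AngII + RvE1 library 5 was listed at 0 for Th, had 0.106 FPKM of Dbh and 0.184 of Npy, and most of its sum was Uchl1 (79.7 FPKM), a gene of the ubiquitin system also active outside neurons. Its Mt3 level was 3.65 FPKM. Sham library 4, with 13.3 FPKM of Th and 75.2 of Npy, had the highest Mt3 of its group at 2.93 FPKM. These are single libraries picked by their nerve cell sums, and the part of nerve cell content in the Mt3 difference was not tested. Schwann cell markers had an r of 0.596 with Mt3 for the sum over 6 genes. The nerve cell genes, unlike these, were listed because they resemble followers of Mt3. The correlations of these lists are therefore not a like comparison, and their difference was not tested.

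**Figure D3:**
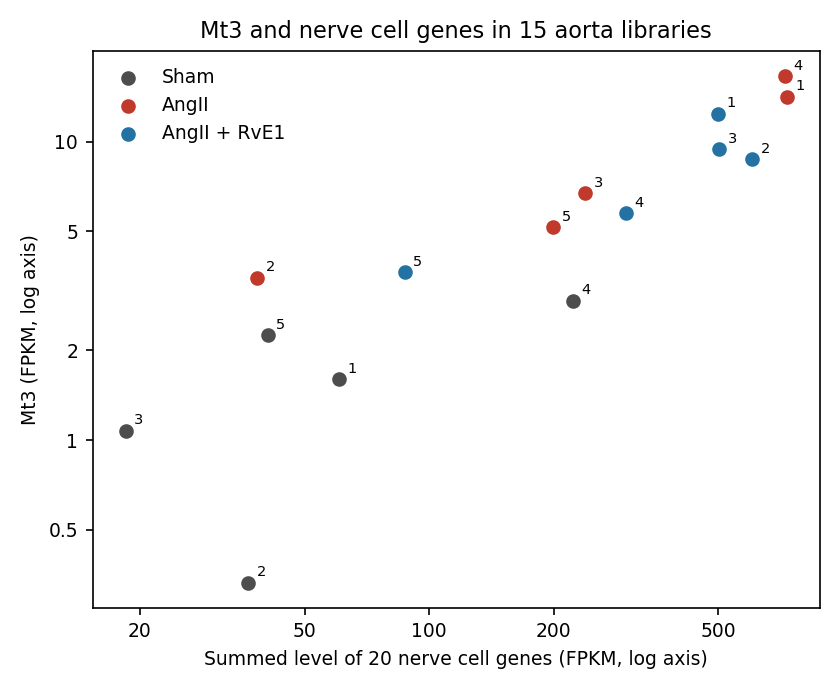
Mt3 in FPKM against the summed FPKM of 20 nerve cell genes, both on log axes, with 1 point per library coloured by group and numbered within it. Points rise together from the Sham libraries at the lower left, and AngII library 2 and AngII + RvE1 library 5 lie above the Sham points at similar sums.

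Mtf1 and Slc30a1, the sensor and the exporter, stood at a few FPKM in every library. Mtf1 was 3.22, 2.29, 2.71, 2.99 and 3.23 FPKM in Sham, 2.50, 2.67, 2.71, 1.99 and 3.03 in AngII and 2.28, 3.06, 1.63, 2.67 and 2.38 in AngII + RvE1. The 3 groups overlapped almost fully, with means of 2.89 ± 0.394, 2.58 ± 0.380 and 2.40 ± 0.528 FPKM (SD, n = 5 each). Log2 differences were -0.12 for AngII against Sham, -0.08 for AngII + RvE1 against AngII and -0.20 for AngII + RvE1 against Sham (SE 0.13 each). The r between Mtf1 and Mt1 was -0.165 over 15 libraries and that between Mtf1 and Mt2 was 0.167. MTF1 is known to be controlled by zinc binding and by its place in the cell, which RNA levels do not measure.

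Slc30a1 encodes ZnT1, which carries zinc out of the cell across the plasma membrane. It was 3.14, 1.58, 1.53, 2.50 and 2.67 FPKM in Sham, 2.79, 3.14, 3.48, 2.72 and 3.26 in AngII and 2.28, 2.61, 2.22, 2.62 and 2.33 in AngII + RvE1. Every AngII + RvE1 library lay below every AngII library, as for 5.23% of tested genes, whereas Sham spread over both. The means were 2.29 ± 0.704, 3.08 ± 0.323 and 2.41 ± 0.187 FPKM (SD, n = 5 each), and the log2 differences were 0.33, -0.25 and 0.08 in the same order of comparisons as for Mtf1 (SE 0.14 each). Slc30a1 had an r of 0.627 with Mt2, 0.332 with Mt1 and 0.365 with Mtf1. By their r with Slc30a1 these genes ranked 1867th, 5696th and 5368th among 12602 other tested genes. All genes were shifted as well: their median log2 difference was 0.112 for AngII against Sham and -0.111 for AngII + RvE1 against AngII, and rescaling libraries by their median ratio brought it to 0.014 and -0.040.

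The closest followers of the other 4 members, leaving out the members themselves, differed from those of Mt3. For Mt1 they were Hp (r = 0.854), which encodes the hemoglobin scavenger haptoglobin, Ctsb (0.834), Fgl1 (0.816), Hfe (0.806) and Ccl6 (0.796). For Mt2 they were the endothelin receptor gene Ednrb (0.901), the TNF receptor gene Tnfrsf1a (0.881), Gda (0.872), Sema6b (0.866) and the scavenger receptor gene Stab1 (0.857). Hp was 465 ± 117 FPKM in Sham, 758 ± 642 in AngII and 385 ± 98.4 in AngII + RvE1 (SD, n = 5 each), and it reached 1884 in its highest AngII library. Mtf1 was followed by the chaperone genes Dnaja1 (0.888) and Hsp90aa1 (0.878) and by Crk (0.884), Gtf3c4 (0.859) and Spty2d1 (0.858). Slc30a1 was followed by Slc25a38 (0.898), R3hcc1l (0.894), Zfp652 (0.894), Srsf4 (0.889) and Ctns (0.889). These genes were picked as the highest by r among 12602 other tested genes, so each r is a description of these 15 libraries. Symbols that end in Rik or start with Gm and a digit were left out of the pick.

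All 5 members passed the filter on low values. With limma's moderated test and Benjamini-Hochberg adjustment over 12603 genes, 1 of 5 members (Mt3) was called higher in AngII than in Sham, where 2.36% of all genes were called higher and 0.809% lower. In AngII + RvE1 against AngII, 0 of 5 were called, where 8.52% of genes were called, 4.21% higher and 4.31% lower. In AngII + RvE1 against Sham the count was 0 of 5, with 0.0238% of genes called. The members were chosen with these contrasts in view, so nothing is read from the counts. No member was called for AngII against Sham in 9 of 22 other settings: without the filter, with only the groups compared, without AngII libraries 3, 4 and 5 together, with the mean of the nerve cell genes as a covariate, and without Sham library 2 or 5 or AngII library 3, 4 or 5 alone. Under rescaling, the 298 higher and 102 lower genes of AngII against Sham became 253 and 241, and the 531 higher and 543 lower genes of AngII + RvE1 against AngII became 766 and 505.

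The other zinc transporters did not show calls. Proteins of the SLC30 family move zinc out of the cytosol and those of the SLC39 family move it in. Of 23 such genes outside the members 15 passed the filter. In each of the 3 comparisons limma called 0 of the 15 at an adjusted p of 0.05, beside 3.17%, 8.52% and 0.0238% of all genes called. At an unadjusted p under 0.05 the counts were 2, 2 and 1 of 15, beside 26.2%, 29.0% and 6.69% of all genes. The same shares of all genes, called and unadjusted, stand behind the counts of the lists that follow. The median log2 difference of the 15 was 0.05 for AngII against Sham, -0.01 for AngII + RvE1 against AngII and 0.07 for AngII + RvE1 against Sham, beside 0.11, -0.11 and 0.01 for all genes.

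Slc30a5, a transporter of the secretory pathway, had the smallest p in the first 2 comparisons. It was 9.79 ± 0.910 FPKM in Sham, 12.5 ± 2.50 in AngII and 9.79 ± 0.573 in AngII + RvE1 (SD, n = 5 each). AngII exceeded Sham by a log2 difference of 0.31 (SE 0.12, adjusted p = 0.126 by limma) and AngII + RvE1 differed from AngII by -0.31 (SE 0.12, limma adjusted p = 0.109). AngII libraries 3 and 5 carried the difference at 15.5 and 15 FPKM, since the other AngII libraries lay between 10.2 and 11.2. Slc39a11 was 2.89 ± 0.472 FPKM in Sham and 3.72 ± 0.528 in AngII (limma adjusted p = 0.189). Slc39a3 was 8.91 ± 0.747 FPKM in AngII and 11.1 ± 1.01 in AngII + RvE1 (limma adjusted p = 0.164), with no overlap between the groups, as for 5.87% of genes with AngII + RvE1 above. Against Sham, AngII + RvE1 had lower Slc39a8 (1.05 ± 0.136 against 1.88 ± 0.952 FPKM, limma adjusted p = 0.735) and higher Slc39a7, a transporter of the endoplasmic reticulum (45.7 ± 5.08 against 36.7 ± 6.62 FPKM, limma adjusted p = 0.754), and neither passed.

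The 8 transporter genes below the filter were Slc30a2, Slc30a3, Slc30a8, Slc30a10, Slc39a2, Slc39a4, Slc39a5 and Slc39a12. Slc39a4, the intestinal zinc importer, was 0.204 ± 0.101 FPKM in Sham, 0.955 ± 0.844 in AngII and 0.109 ± 0.0299 in AngII + RvE1 (SD, n = 5 each). Slc30a8, the transporter of insulin granules, was listed at 0 in all 15 libraries.

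**Figure D4:**
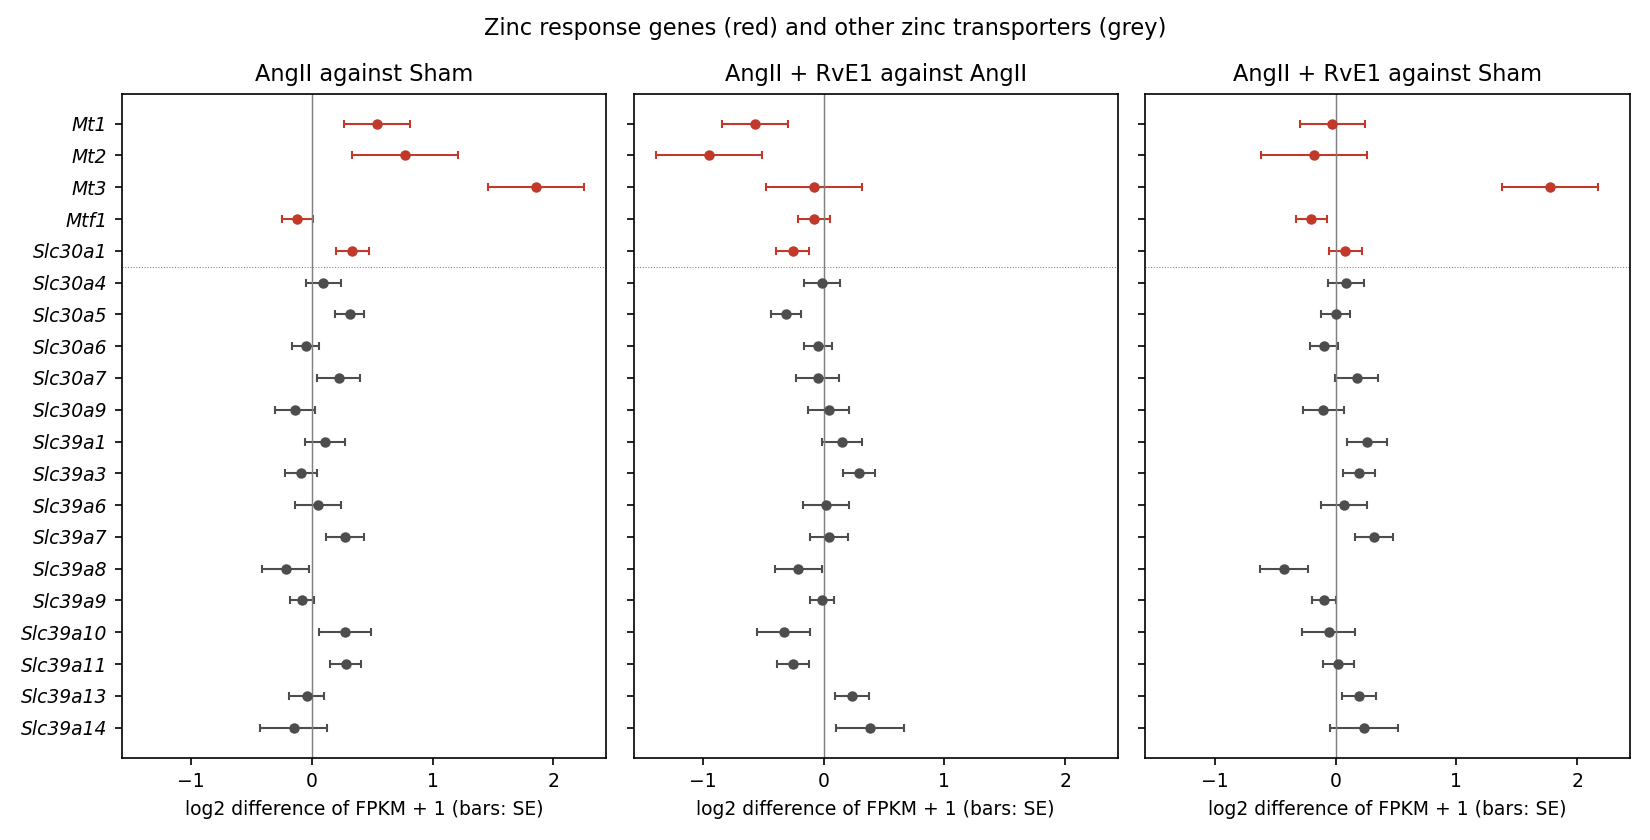
Log2 difference of FPKM + 1 with its SE for the 5 listed genes (red) and the 15 tested zinc transporters (grey), in 1 panel for each comparison. Mt3 lies farthest to the right for AngII against Sham (1.86) and AngII + RvE1 against Sham (1.77), and the transporters stay between -0.43 and 0.38.

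Other genes linked to MTF1 or to metallothionein regulation were listed too. Of 7 tested genes that MTF1 is reported to control, limma called 0 for AngII against Sham (2 at an unadjusted p under 0.05), 1 higher for AngII + RvE1 against AngII and 0 for AngII + RvE1 against Sham (0 unadjusted). The 1 call was Csrp1, which is also a smooth muscle gene of the contractile apparatus. Its level of 235 ± 64.0 FPKM in AngII rose to 674 ± 174 in AngII + RvE1, a log2 difference of 1.52 (SE 0.42, adjusted p = 0.0399 by limma), and 12 of 22 other settings lost the call. All 7 smooth muscle markers were also called higher in that comparison, and the part of smooth muscle in the Csrp1 difference was not tested. The iron exporter gene Slc40a1 was 1.51 ± 0.756 FPKM in Sham and 12.6 ± 20.5 in AngII (limma adjusted p = 0.117), with 49.2 in AngII library 3 and at most 5.47 elsewhere. Pgf, which encodes placental growth factor, was 2.48 ± 1.79 FPKM in Sham and 3.90 ± 1.93 in AngII + RvE1 (limma adjusted p = 0.835).

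Metallothioneins also bind copper. Copper handling genes gave 0 calls of 12 tested for AngII against Sham (2 at an unadjusted p under 0.05) and 0 for AngII + RvE1 against Sham (0 unadjusted). For AngII + RvE1 against AngII 1 of 12 fell. This was the metalloreductase gene Steap4, at 39.6 ± 12.7 FPKM in AngII and 21.6 ± 6.52 with RvE1, a log2 difference of -0.86 (SE 0.25, adjusted p = 0.0450 by limma), and 13 of 22 other settings lost the call. Slc31a1, the copper importer gene, was 7.94 ± 1.42 FPKM in Sham, 14.0 ± 3.63 in AngII and 11.7 ± 3.94 in AngII + RvE1, which missed the threshold against Sham in both (limma adjusted p = 0.0757 and 0.760). Cp, which encodes the copper carrier ceruloplasmin, was 16.2 ± 5.47 FPKM in Sham and 23.6 ± 6.24 in AngII (limma adjusted p = 0.173).

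Glucocorticoids induce Mt1 and Mt2. Of 9 tested glucocorticoid-induced genes, 2 were called higher in AngII against Sham and lower in AngII + RvE1 against AngII. Of all genes, 2.36% were called higher in the first comparison and 4.31% lower in the second. Both comparisons share the AngII libraries. Fkbp5, which encodes a chaperone of the glucocorticoid receptor, was 5.72 ± 3.40 FPKM in Sham, 15.8 ± 7.37 in AngII and 3.41 ± 1.02 in AngII + RvE1 (SD, n = 5 each). It rose by a log2 difference of 1.42 (SE 0.37, adjusted p = 0.0491 by limma), a call that 18 of 22 other settings lost, and fell by 1.87 with RvE1 (SE 0.37, limma adjusted p = 0.0159). The sulfotransferase gene Sult1a1 was 43.7 ± 10.9, 77.3 ± 10.95 and 40.7 ± 9.94 FPKM in the same order, with log2 differences of 0.83 (SE 0.19, limma adjusted p = 0.0319) and -0.93 (SE 0.19, limma adjusted p = 0.0175). The first of these calls was lost in 10 of 22 other settings and the second in 3. The list's median log2 difference was 0.61 for AngII against Sham, -0.93 for AngII + RvE1 against AngII and -0.48 for AngII + RvE1 against Sham. In the last comparison 0 of 9 were called and 1 had an unadjusted p under 0.05. That gene was Errfi1, at 47.8 ± 32.0 FPKM in Sham and 21.0 ± 13.6 in AngII + RvE1 (limma adjusted p = 0.686), and Zbtb16 followed (limma adjusted p = 0.852). Over 15 libraries the sum of the list had an r of 0.134 (rho 0.289) with Mt1 and 0.256 (rho 0.454) with Mt2. The part of glucocorticoids in the Mt1 and Mt2 levels was not tested.

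Of 8 IL-6 and STAT3 response genes, which include inducers of metallothionein expression, 1 rose in AngII against Sham and fell in AngII + RvE1 against AngII. This was the interleukin 6 receptor gene Il6ra, at 1.67 ± 0.685 FPKM in Sham, 4.26 ± 1.60 in AngII and 1.25 ± 0.496 in AngII + RvE1 (SD, n = 5 each). Its log2 differences were 0.96 (SE 0.22, limma adjusted p = 0.0340) and -1.20 (SE 0.22, limma adjusted p = 0.0148). The first call was lost in 11 of 22 other settings. The list's median was 0.65 and -0.80 in these comparisons. Against Sham, 0 of 8 were called in AngII + RvE1 (0 unadjusted), with Socs3 and Saa3 nearest at adjusted p = 0.920 and 0.938 by limma. Over 15 libraries the sum of this list had an r of 0.661 (rho 0.379) with Mt1 and 0.869 (rho 0.775) with Mt2. Without the 2 libraries farthest from the median sum, r was 0.239 with Mt1 and 0.576 with Mt2. The part of IL-6 or STAT3 in the Mt1 and Mt2 levels was not tested.

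Among 7 tested NRF2 targets 0 were called in any comparison, with 1, 4 and 0 at an unadjusted p under 0.05. Hmox1 was 10.5 ± 5.14 FPKM in Sham and 194 ± 374 in AngII (limma adjusted p = 0.119), a spread set by AngII library 3. Gclm, which encodes a subunit of the enzyme that starts glutathione synthesis, was 11.6 ± 1.86 FPKM in Sham and 14.99 ± 4.54 in AngII (limma adjusted p = 0.213). Nqo1, a quinone reductase gene, was 4.56 ± 1.14 FPKM in AngII and 9.36 ± 3.08 in AngII + RvE1 (limma adjusted p = 0.0504). Txnrd1, the thioredoxin reductase gene, was 18.2 ± 1.57 FPKM in AngII and 14.4 ± 1.71 in AngII + RvE1 (limma adjusted p = 0.0703).

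None of the 8 list calls named above remained when AngII libraries 3, 4 and 5 were left out, which leaves 2 AngII libraries. For AngII against Sham, the Sult1a1 and Il6ra calls were also lost when any 1 of these 3 libraries or Sham library 2 or 5 was left out, that of Il6ra also without Sham library 1, and that of Fkbp5 without any single library other than Sham library 4 and AngII libraries 1 and 2. For AngII + RvE1 against AngII, the Fkbp5 and Il6ra calls held when any single library was left out, and that of Sult1a1 was lost without AngII library 5 or AngII + RvE1 library 4. The Csrp1 and Steap4 calls were lost without Sham library 2 or 4, AngII library 3, 4 or 5, or AngII + RvE1 library 1, 3, 4 or 5. With AngII libraries 3, 4 and 5 left out, the Mt1 differences were 0.63 for AngII against Sham and -0.66 for AngII + RvE1 against AngII, and those of Mt2 were 0.54 and -0.72, because AngII libraries 1 and 2 were above the Sham mean for both genes.

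The genes around the metallothionein cluster had small differences beside that of Mt3. Bbs2, a cilium gene 37834 bp before Mt4, differed by -0.06 on the log2 scale between AngII and Sham. Ogfod1, which encodes a ribosomal hydroxylase, differed by 0.05, and Nup93, a nuclear pore gene 34236 bp after Mt1, by 0.07. Over all 3 comparisons their differences ran from -0.22 to 0.29. None of the 3 genes had an unadjusted p under 0.05 in any comparison, and 0 were called by limma. These neighbours were chosen by position alone.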

How the data were processed

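The authors deposited 1 table of gene symbols with 1 value per gene and library, treated here as FPKM. Values have decimals and unequal sums, and scaling to length could not be shown from them. Libraries were made with a SMARTER mRNA kit after column extraction of RNA, per the labels' protocols. The genome was mm10, per the submitters' processing notes. The aligner, the quantifier, the annotation and strandedness were not given in the sources used here, so reads of overlapping antisense genes cannot be told apart. No depth is given.

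The 12603 genes that reached 1 FPKM in 5 or more libraries were kept, with values transformed as log2(FPKM + 1). limma 3.58.1 (R 4.3.3) was fitted with a trend and 1 mean per group over 15 libraries. The 3 contrasts used two-sided tests with Benjamini-Hochberg adjustment over all genes at 0.05. The plan named edgeR for counts, and it was not run because the file holds none. The fit was tested on simulated data. List sums add FPKM, and correlations use log2(FPKM + 1). RefSeq tables of GRCm38.p6, which list all 34714 symbols, supplied coordinates and promoter windows.

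The members and lists were chosen with earlier results of these data known. Named were all members and the 5 genes most like each member, leaving out symbols that end in Rik or start with Gm and a digit. Also named were up to 4 called genes of each list per contrast by smallest adjusted p (or the 2 smallest p where none passed). The nerve cell list, the covariate, the locus neighbours, Slc39a4 and Slc30a8, and the library sums of AngII library 3 were chosen after seeing values. Alternatives were an added 0.1, no filter, only the groups compared, a median-ratio rescaling, a block for the replicate number, omission of each single library, AngII libraries 3, 4 and 5 left out, and the nerve cell covariate.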

Additional observations from a re-analysis of the deposited data

Results flagged for a closer look

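Mt2 in AngII library 3 was 731 FPKM, and the nearest other AngII library had 202 FPKM. Its gap to that library was 0.848 of the group's whole range, above the critical value of 0.71 for 5 libraries. On the log2(FPKM + 1) scale used in the fits the share was 0.671, below that value. All 15 sets of a member and a group were screened, and chance alone marks about 1 in 20 such sets where values are normally distributed. Whether the FPKM values are so distributed was not tested.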

How the results depend on the processing

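For AngII against Sham 400 genes were called, against 109 with the replicate block, 151 without the filter, 39 with only the groups compared, 20 without AngII libraries 3, 4 and 5, and 30 with the nerve cell covariate, and between 77 and 1697 when single libraries were left out. For AngII + RvE1 against AngII, 1074 became 433 with the block, 405 without the filter and 1 without AngII libraries 3, 4 and 5, with 95 to 2007 when single libraries were left out. For AngII + RvE1 against Sham, 3 became 1 with the block, without the filter, with only the groups compared and with the covariate, and 5 without the 3 AngII libraries, with 1 to 8 when single libraries were left out. The cause of these shifts was not tested. The Mt3 difference from Sham moved to 1.02 (AngII) and 0.89 (AngII + RvE1) with the covariate, whose genes were listed because they resemble followers of Mt3, so that nothing is read from it, and to 2.38 (AngII + RvE1) with an added 0.1. Zinc transporter calls were 0 under every alternative run. Correlations of same-numbered deviations from group means ran from -0.414 to 0.521. They were not set beside those of differently numbered libraries, so whether replicate numbers pair the samples was not tested. The Mt1 and Mt2 differences of AngII against Sham and of AngII + RvE1 against AngII kept their direction in 22 of 22 alternatives. Some of these alternatives cannot change a difference, so the count is no measure of its stability. They are the block, no filter, only the groups compared, and omission of a library of the group not compared. Without counts or depth, the precision of low values such as those of Mt3 is unknown.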
